A study of Petromyzon marinus with 6 samples.

Results

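FTH1, the heavy chain of ferritin, was followed in the brainstem of larval sea lampreys (Petromyzon marinus) with and without GABA in the water after a complete spinal cord transection. Only 66 of the 57134 loci in the count table carry a symbol, so that further loci of the gene may be unnamed. The name FTH1 belongs to 1 locus, MSTRG.27482. It was taken because Supplementary File 1 of the study names it FTH1 (ferritin heavy polypeptide 1) on the sheet for baclofen, a GABAB receptor agonist, where it stands as changed in other animals. No further locus of that file is named as ferritin. The locus was chosen by its listing on that sheet, whose measured values are fold changes in baclofen-treated animals, and with its values in the GABA experiment already known. Its levels are therefore given here as a description of these samples. The name was carried over by the locus identifier alone. The paper describes 1 transcriptome of 57134 genes, built from its samples, and 1 set of counting settings. The GABA table holds that number of loci, and all 104 loci of Supplementary File 1 were found in it. The sequence behind it was not checked. Of all 57134 loci in the GABA table, 24300 passed the count filter. Of the 82 loci on the baclofen sheet, 74 passed it and 8 did not, and 6 had a mean under 3 raw counts per sample in the GABA table. One of those 6, MSTRG.27497, lies on the contig of FTH1 and has 0 to 2 counts in each sample here, although the sheet lists it as well expressed. Beyond the paper's description, whether identifiers and strand were handled alike in both tables was not checked. If they were handled differently, the values below belong to the locus MSTRG.27482 and not to FTH1.

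Ferritin is the main iron store inside cells. Heavy and light subunits assemble into a hollow shell, and the heavy subunit carries the ferroxidase site that oxidizes ferrous iron before it is laid down in the core. In mammals the amount of ferritin protein is set largely at translation, by iron regulatory proteins that bind the messenger RNA when iron is scarce, so that the mRNA counted here and the protein need not move together. In the mammalian nervous system much of the ferritin lies in glial cells and macrophages.

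The samples were brainstems of larvae aged 5 to 7 years from the river Ulla in Spain. Animals in the GABA group were kept in water with GABA at 500 µM after the lesion, and control animals in water without it, so that both groups carried the injury. Tissue was taken 29 days after the lesion according to the methods of the study, while the design text deposited with the samples gives 9 days. Each of the 3 GABA and 3 control samples pooled the RNA of 4 brainstems, and the tissue holds neurons, glia and other cells. The deposited values are whole-number fragment counts per locus, which were divided here by DESeq2's median-of-ratios size factors to give normalized counts. Total counts per sample ran from 12261374 to 14248306 in the controls, against from 13266414 to 14666153 in the GABA samples. The presynaptic gene CPLX1 (complexin-1), taken as a neuronal marker, had 1138 normalized counts per kilobase on average over the 6 samples. Only 66 loci had a symbol, and none of the 4 red blood cell symbols looked for was among them, so that the blood in the tissue could not be measured.

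FTH1 lies on contig PIZI01000045.1 of the germline genome assembly Pmar_germline 1.0, from 7851485 to 7855461 on the minus strand, a span of 3977 bases. StringTie placed 4 exon blocks there, which sum to 2265 bases. In the direction of transcription they measured 1051 (7854411 to 7855461), 148 (7852970 to 7853117), 128 (7852636 to 7852763) and 938 bases (7851485 to 7852422), with gaps of 1293, 206 and 213 bases between them. The outer blocks, which in a 4-exon ferritin gene hold the untranslated ends as well as coding sequence, made up most of the locus. Which bases are coding was not determined, as no genome sequence of this assembly was used. The newer RefSeq annotation of another sea lamprey assembly (UKy_Petmar_22M1.pri1.0) holds 1 gene with the symbol FTH1, between LOC116944437 and CDC7. Its identifiers matched 0 of those in the count table, so that it was not tied to this locus.

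The pair of short middle blocks was looked for elsewhere after the locus structure had been seen. Of 5278 loci with 4 or 5 blocks, 12 (0.227%) ended with the same arrangement, in which blocks within 2 bases of 148 and 128 come just before the last block. FTH1 and 2 more of them lay on the same contig, which holds 504 loci, and 9 lay on other contigs. Of the 11 other loci, 6 were above FTH1 in counts per kilobase and 5 below. One of the loci on the contig, MSTRG.27496, lies 336740 bases beyond FTH1, from 8192202 to 8194980 on the minus strand, with blocks of 259, 147, 126 and 434 bases. The other, MSTRG.27485, runs from 7861654 to 8204808 on the plus strand. Its first block begins 6192 bases upstream of the 5′ end of FTH1 and is joined over 339736 bases to blocks of 66, 147, 126 and 1123 bases. The second of its blocks begins 6635 bases from the 5′ end of MSTRG.27496, again facing away from it. Neither locus has a name in the sources used, and block lengths alone do not identify a gene. Both are called here by their identifiers.

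**Figure D1:**
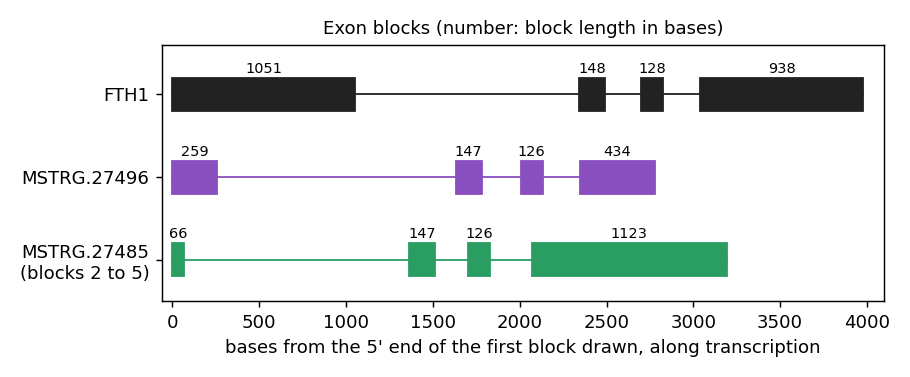
Exon blocks of FTH1 and of the 2 loci of its contig with the same pair of middle block lengths, drawn to scale in bases from the 5′ end of the first block shown, in the direction of transcription; the first block of MSTRG.27485, 339736 bases away, is left out. The middle blocks are 148 and 128 bases in FTH1 and 147 and 126 bases in both others, while the outer blocks differ in length.

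A further locus, MSTRG.27483, overlaps FTH1 on the opposite strand, from 7851522 to 8194936. All 781 bases of its first block lie opposite the last block of FTH1, and 222 bases of its other blocks lie opposite blocks of MSTRG.27496. A single assembled transcript model thus touches both loci on the reverse strand. Its raw counts were 15, 27 and 15 in control replicates 1, 2 and 3 and 17, 20 and 23 in the GABA samples. Since counting used strand, these fragments were kept apart from those of FTH1, and they were few beside the 269 to 486 counts of FTH1. Fragments that match more than 1 of these loci could have been left out, as the paper lists no counting setting that splits them. How they were handled was not checked, so that the level of FTH1 is uncertain to that extent.

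MSTRG.27482, the only locus named FTH1, was of moderate abundance in the brainstem, not counting any unnamed locus of the gene. By the mean of the normalized counts it ranked 6636 among the 57134 loci, and per kilobase of locus, the scale on which genes of different length can be compared, it ranked 3449. Its mean level was 177 normalized counts per kilobase, against a median of 43.4 over the 24300 loci that passed the count filter, and 14.2% of those loci lay above it. The rank per kilobase was 3350, 2612 and 3114 in control replicates 1, 2 and 3, and 3535, 3900 and 5317 in the GABA samples. Control replicate 2 thus held the locus at its highest place and GABA replicate 3 at its lowest.

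Among the 66 loci that carry a symbol in Supplementary File 1, FTH1 took place 20 in level per kilobase. Just above it stood STON2 (stonin-2, an endocytic adaptor) with 236 ± 39.1 normalized counts per kilobase (SD over the 6 samples) and SLC4A4 (a sodium bicarbonate cotransporter) with 229 ± 40.3. Just below it stood SCRG1 (scrapie-responsive protein 1) with 176 ± 39.9 and CDO1 (cysteine dioxygenase, which begins the breakdown of cysteine) with 157 ± 32.3. FTH1 itself had 177 ± 38.4, and its range over the samples, 117 to 229, overlapped that of each of these neighbours.

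Both loci of like block structure on the contig were more abundant than FTH1. MSTRG.27496 averaged 12372 normalized counts per kilobase, rank 16 in the table, and MSTRG.27485 had 488, rank 1052. Per kilobase, MSTRG.27496 stood above FTH1 by a factor of 59.1, 62.3 and 51.3 in control replicates 1, 2 and 3 and of 72.0, 72.1 and 128 in GABA replicates 1, 2 and 3. The factor was higher in every GABA sample than in any control sample, and it was highest in GABA replicate 3. FTH1, its denominator, was itself lower in every GABA sample, while the groups overlapped at MSTRG.27496. The factor is thus no separate sign of a difference.

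**Figure D2:**
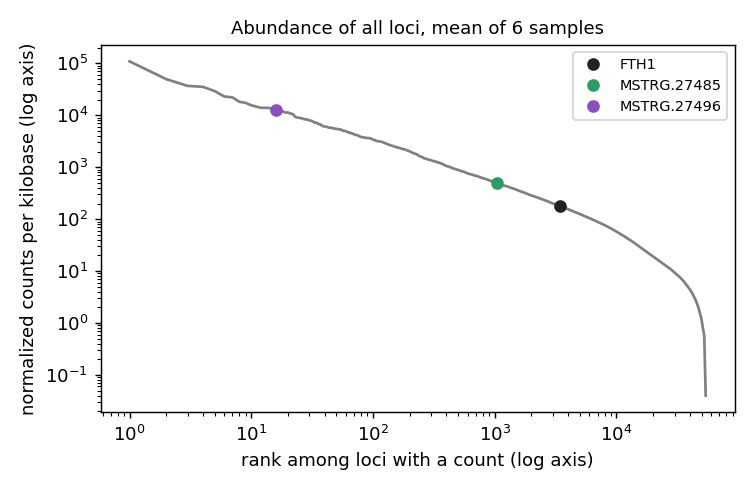
Mean normalized counts per kilobase over the 6 samples (log axis) against rank (log axis) for the loci with at least 1 count, with FTH1 and the 2 loci of like block structure marked. FTH1 lies at rank 3449 with 177, below MSTRG.27485 at rank 1052 and MSTRG.27496 at rank 16.

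The comparison of GABA with control samples asked which transcripts differ when injured larvae are kept with GABA. FTH1 had 444, 486 and 402 raw counts in control replicates 1, 2 and 3, and 434, 378 and 269 in GABA replicates 1, 2 and 3. Normalized, these were 417, 518 and 458 in the controls, against 393, 355 and 265 under GABA. Every GABA sample lay below every control sample, but the gap between GABA replicate 1 and control replicate 1 was only 24.3 normalized counts. The 95% counting intervals (exact Poisson) of these samples, 357 to 432 and 379 to 458, overlapped, while that of GABA replicate 3, 234 to 299, lay below those of all other samples. Such intervals cover counting error only.

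The mean of the controls was 464 ± 50.6 (SD, n = 3), against 338 ± 65.7 (SD, n = 3) under GABA, so that the GABA mean was lower by 27.3%. edgeR's quasi-likelihood test, fitted on all 24300 loci, put FTH1 at −0.44 on the log2 scale, GABA over control, with a standard error (SE) of 0.14. This SE, like all from edgeR here, was worked back from the F statistic of the test. The p of FTH1 was 0.00760 before and 0.729 after Benjamini-Hochberg adjustment in edgeR. The difference did not pass the threshold of 0.05. Of all loci tested, 0 passed it in either direction (0%), the smallest adjusted p being 0.504, while 1591 (6.55%) had an unadjusted p under 0.05, of which 842 (3.47% of those tested) were lower under GABA. DESeq2 called 23 loci, and FTH1 was not among them, its default independent filtering leaving FTH1 without an adjusted p. With that filtering off, DESeq2 called 7 loci, and its adjusted p for FTH1 was 0.996. Ordered by unadjusted p in edgeR, FTH1 held place 148 of the 11786 loci that were lower under GABA. A fold change at or below its own occurred at 53 (0.434%) of the 12216 loci with a mean of at least 100 normalized counts. Groups without overlap and lower in the GABA samples occurred at 1716 loci (7.06%), and the two-sided exact permutation test over the samples gave FTH1 p = 0.1, the smallest that 3 against 3 can give. Fewer cells with FTH1 and less FTH1 RNA per cell cannot be told apart in these pooled tissues, and p-values measure the spread between pools.

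**Figure D3:**
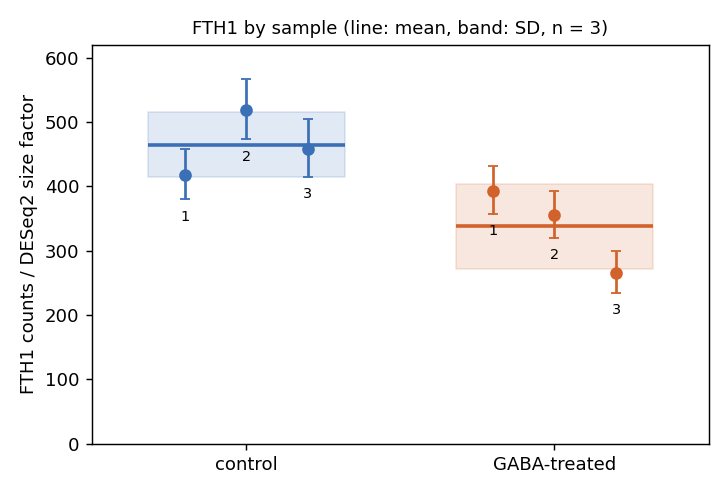
FTH1 counts divided by the size factor (y axis, from 0) in the 3 control and 3 GABA samples; points are samples with 95% Poisson intervals and their replicate number, the line is the group mean and the band 1 SD. The GABA samples lie between 265 and 393 and the control samples between 417 and 518.

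The counting error of a single sample lay between 4.54% and 6.10% of its count, and the SD was 10.9% of the mean in the controls, against 19.5% in the GABA samples. edgeR's estimate of the biological coefficient of variation was 11.8% for FTH1, against 9.57% on the trend at its abundance and a median of 13.7% over all loci tested. GABA replicate 3 carried much of the difference and of the spread. Without it the log2 fold change was −0.30 (SE 0.12), and without control replicate 2, the highest sample, it was −0.35. Without GABA replicate 1 it was −0.56. All 15 alternative settings kept the fold change below 0, between −0.56 and −0.30. The adjusted p ran from 0.194 with no count filter to 0.999 without GABA replicate 2 in the 14 settings that defined it, while DESeq2 with its default independent filtering left it undefined.

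**Figure D4:**
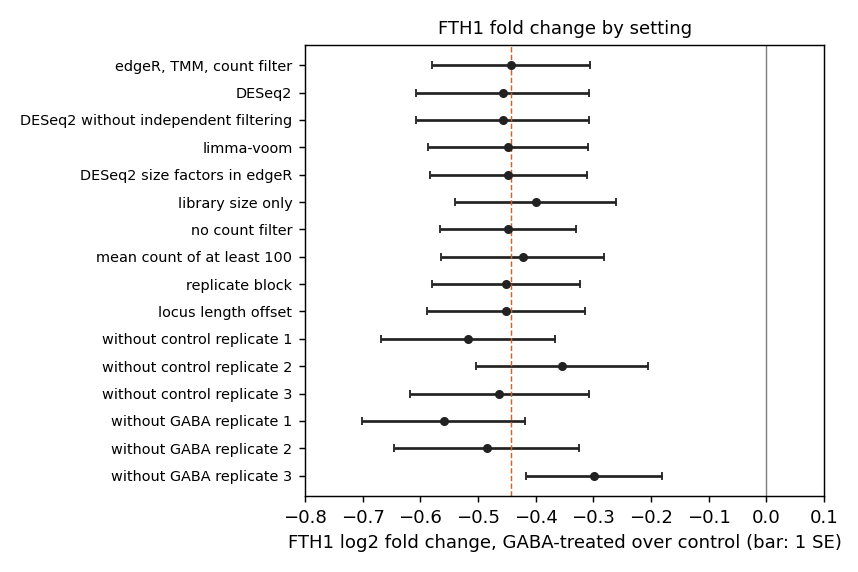
Log2 fold change of FTH1, GABA over control, with 1 standard error, under edgeR's quasi-likelihood test and the 15 alternatives; the dashed line marks −0.44. All values are below 0, and the value nearest 0, −0.30, is that without GABA replicate 3.

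The loci next to FTH1 on the contig were read in the same fit. MSTRG.27480, which ends 820 bases from the 3′ end of FTH1 on the plus strand, had 2075, 2003 and 2047 normalized counts in the controls, against 2125, 2063 and 2227 under GABA. On the log2 scale it differed by 0.08 (SE 0.06, edgeR's Benjamini-Hochberg adjusted p = 0.830). MSTRG.27484 has 1 block, on the same strand as FTH1 and 632 bases upstream of it. It held 115, 112 and 100 normalized counts in the controls, against 103, 104 and 78.8 under GABA, where replicate 3 was again the lowest, and it differed by −0.18 on the log2 scale (SE 0.16). The antisense locus MSTRG.27483 had a log2 fold change of −0.06 (SE 0.34). The groups overlapped at each of these loci. Over the 6 samples the Pearson correlation of log2 CPM (counts scaled to library size, with TMM factors) with FTH1 was −0.96 for MSTRG.27480 and 0.82 for MSTRG.27484. MSTRG.27497 is the only other locus of Supplementary File 1 on the contig, at 8201479 to 8201684 on the minus strand, where it spans the block of 66 bases of MSTRG.27485 on the opposite strand. It had between 0 and 2 raw counts in each sample and was not tested. The baclofen sheet lists it as well expressed. By the paper's methods that sheet is of other animals, at another time after the lesion and on another sequencer. The reason for the unlike levels was not tested.

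MSTRG.27485 and MSTRG.27496, named here for their structure after the table had been seen, are set beside FTH1 without a test of the difference between loci. MSTRG.27485 had 770, 936 and 1095 normalized counts in control replicates 1, 2 and 3 and 874, 689 and 577 in the GABA samples, and the groups overlapped. On the log2 scale it differed by −0.37 (SE 0.15, unadjusted p = 0.0267, adjusted p = 0.737, both from edgeR). MSTRG.27496 had 10516, 13763 and 10017 normalized counts in the controls, against 12071, 10914 and 14426 under GABA, again with overlap, and a log2 difference of 0.14 (SE 0.13, adjusted p = 0.873 from the same test). GABA replicate 3 held the lowest value of FTH1 and of MSTRG.27485 and the highest of MSTRG.27496. The same correlation was 0.87 for MSTRG.27485 and −0.36 for MSTRG.27496. These are descriptions of 6 shared libraries.

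FTH1 supplied 3.57%, 3.40% and 3.96% of the raw counts of the 3 loci together in control replicates 1, 2 and 3, with 95% Wilson intervals from 3.12% at the lowest to 4.36% at the highest. In the GABA samples it supplied 2.95%, 2.97% and 1.74%, with intervals from 1.54% to 3.28%. The shares of the groups did not overlap, though their intervals, which cover counting error only, did. The mean was 3.64% ± 0.285 (SD, n = 3) in the controls against 2.55% ± 0.705 (SD, n = 3) under GABA. The two-sided exact permutation test gave p = 0.1, the smallest that 3 against 3 can give. FTH1 itself was already lower in every GABA sample, so that the shares are no separate sign of a difference. With the counts of the 3 loci summed before the fit, a choice made after seeing the data, the log2 difference was 0.09 (SE 0.12, adjusted p = 0.917 from edgeR with Benjamini-Hochberg adjustment). The sum mostly follows MSTRG.27496, and it leaves out the 9 loci on other contigs.

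Among those 9, MSTRG.21214 averaged 49681 normalized counts per kilobase and MSTRG.46644, whose blocks of 245, 147, 127 and 435 bases come near those of MSTRG.27496, averaged 13282. MSTRG.46644 had 10460, 14912 and 20891 normalized counts in control replicates 1, 2 and 3, and 13434, 10267 and 6059 in GABA replicates 1, 2 and 3. It was lowest in GABA replicate 3, where MSTRG.27496 was highest, and its groups overlapped (log2 difference −0.62, SE 0.26, adjusted p = 0.738 by edgeR). MSTRG.21214 had 52207, 57742 and 63364 normalized counts in the controls, with 53460, 43828 and 49243 under GABA, also overlapping (log2 difference −0.23, SE 0.09, adjusted p = 0.734 by edgeR). Of the other 7, MSTRG.7077 (521 normalized counts per kilobase) and MSTRG.15070 (285) were above FTH1. MSTRG.15070 had 2821, 2780 and 3034 normalized counts in the controls, against 2677, 2589 and 2755 under GABA. Its groups did not overlap (log2 difference −0.09, SE 0.06, adjusted p = 0.824 by edgeR). Such groups, lower under GABA, occurred at 7.06% of all loci tested. MSTRG.23913 (46.1) and MSTRG.23545 (42.8) were below FTH1. The groups overlapped at MSTRG.7077, MSTRG.23913 and MSTRG.23545. The remaining 3 had at most 1.04 normalized counts per kilobase and were not tested. The shares and the sum above therefore hold for the 3 loci of the contig alone.

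**Figure D5:**
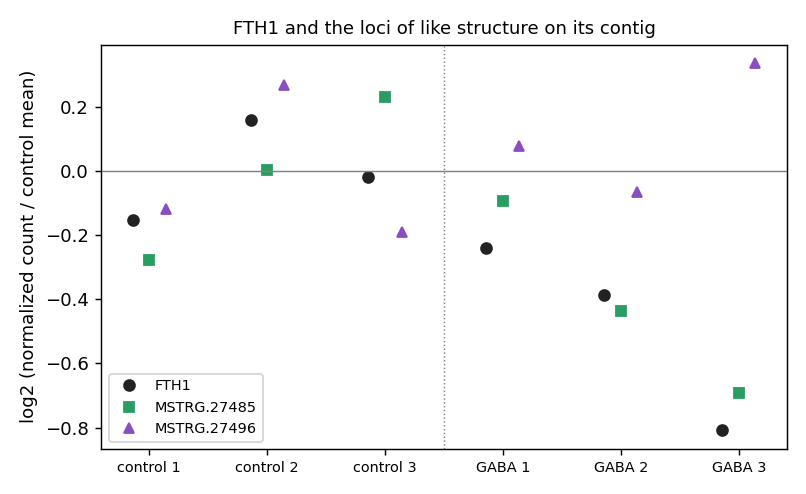
Normalized counts of FTH1, MSTRG.27485 and MSTRG.27496 in each of the 6 samples, as log2 of the ratio to the control mean of the same locus. In GABA replicate 3 FTH1 stands at −0.81 and MSTRG.27485 at −0.69, while MSTRG.27496 stands at 0.34.

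A list of 62 symbols of iron handling genes (uptake, export, storage, heme, iron-sulfur clusters and their regulators) was matched to Supplementary File 1, and 1 of them, FTH1, was found there. The transferrin receptor, ferroportin, the iron regulatory proteins, the ferritin receptor NCOA4 and the light chain of ferritin carry no name in the sources used for this table, and no statement on the pathway around FTH1 was possible.

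Among the loci tested, 231 (0.951%) had a Pearson correlation with FTH1 above 0.9 over the 6 samples. The highest was at MSTRG.53322 (0.99), a locus of few counts, with 13.2, 22.4 and 15.9 normalized counts in the controls against 11.8, 7.51 and 3.94 under GABA. Next came MSTRG.30625 (0.99), with 304, 314 and 312 and then 293, 286 and 265. Of the 63 other tested loci with a symbol, the most alike were CREM (0.95), a cAMP-responsive transcription factor, KITB (0.94), a Kit-like receptor, and MYL6 (0.90), a myosin light chain that the study listed on these samples. CREM had 258, 338 and 301 normalized counts in the controls, against 265, 229 and 210 under GABA, with its peak, like that of FTH1, in control replicate 2. KITB had 652, 806 and 686 and then 597, 600 and 523. The least alike were COL6A6 (−0.83), a collagen VI chain, and GABRA5 (−0.76), a GABAA receptor subunit that the study listed on these samples. The correlations share 6 libraries and the same scaling. They span both groups, so that a difference between the groups enters them. All symbols come from loci that the study listed as changed under GABA or baclofen. The loci named are the extremes of a long list, and the share that chance alone would give was not tested.

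Markers of the cells that the tissue could hold were summed in each sample, as far as Supplementary File 1 names them. The glial and ependymal loci (4 of 10 symbols looked for: VIM, SCRG1, EMP2 and SoxE1) summed to between 13402 and 15331 normalized counts in the controls, against 10695 to 12183 in the GABA samples, without overlap. Groups without overlap and lower under GABA occurred at 7.06% of all loci tested. That share is of single loci, and none was computed for sums of loci. By replicate 1, 2 and 3 the sum was 15331, 13402 and 15177 in the controls and 11510, 10695 and 12183 under GABA. Its members did not share 1 order over the samples. SCRG1 had 557, 696 and 595 in the controls, against 455, 372 and 447 under GABA. EMP2 had 3935, 4165 and 4337, against 3250, 3419 and 3337. Most of the sum was VIM, with 7920 to 10218 in the controls, against 6323 to 7847 under GABA, without overlap (log2 difference −0.37, SE 0.10). VIM, SCRG1 and EMP2 were listed by the study on these samples, so that the lower sum under GABA is no independent sign. SoxE1, the only member not listed there, had 620, 621 and 532 normalized counts in control replicates 1, 2 and 3 and 607, 580 and 552 in the GABA replicates, with overlap (log2 difference −0.02, SE 0.09). The connective tissue loci (5 of 8) also summed lower, with 3141 to 3346 in the controls, against 2577 to 2933 in the GABA samples. SULF1, which was likewise listed on these samples, accounts for that gap: without it, a choice made after seeing the data, the sums were 1389 to 1713 in the controls and 1318 to 1662 under GABA, and overlapped. Of the other members the log2 difference was −0.27 for PRG4, 0.27 for COL6A6, 0.01 for FBN1 and 0.01 for SPON2. The leukocyte loci PTPRC, CD62L, VLRA and TLR2 (4 of 11) overlapped, with 431 to 731 and 445 to 579. They summed to 484, 731 and 431 in control replicates 1, 2 and 3 and to 494, 579 and 445 in the GABA replicates. The neuronal loci (6 of 12) overlapped too, with 18715 to 21187 and 17872 to 21004. Most of that sum was CPLX1, with 10944 to 13201 over the 6 samples. CARTPT and GABRA5, both listed by the study on these samples, separated in opposite directions. Groups without overlap in either direction occurred at 2964 (12.2%) of all loci tested. CARTPT had 5400 to 5788 in the controls against 4044 to 4931 under GABA, and GABRA5 668 to 1122 against 1192 to 1346. Without these loci, a choice made after seeing the data, the sums were 12647 to 14534 and 12455 to 14785, and overlapped. No tested marker passed the adjusted threshold in edgeR's test. As 0 of the 24300 loci tested passed it, this does not tell whether the markers differ. MAP6 was not tested. The part of these cells in the level of FTH1 was not tested.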

How the data were processed

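RNA-Seq counts of 3 control and 3 GABA samples were used. After trimming with fastp and 2-pass alignment by STAR on Pmar_germline 1.0, the authors assembled loci with StringTie and deposited the raw fragment counts per locus from featureCounts (strand used, both ends mapped, no chimeric fragments), together with the length of each locus. Versions are not given in the sources used here. Of the 57134 loci, 2 were broken over 2 lines and were rejoined. All 6 sample columns matched a sample.

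Loci were filtered with filterByExpr (24300 kept, FTH1 among them), scaled by TMM and compared in edgeR 4.0.16 (quasi-likelihood test, condition only, two-sided, Benjamini-Hochberg adjustment over all loci tested, threshold 0.05) in R 4.3.3. DESeq2 1.42.0, limma-voom (limma 3.58.1), other scalings, the replicate block, other count filters (none, or a mean of at least 100), a locus length offset (lowess, span 0.3) and each sample left out were the alternatives. The SE of an edgeR fold change was its absolute log2 value over the square root of the F statistic. Correlations used log2 CPM with a prior count of 2. Normalized counts are counts over DESeq2 size factors. Python 3.11.15 was used with matplotlib 3.10.9, scipy 1.17.1 and pandas 2.3.3. The fits were also run on simulated data, the outcome of which is not given or relied on here.

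The rule for names took FTH1, loci overlapping or next to it, other listed loci of its contig, its neighbours in abundance and likeness, an iron list and cell markers. The members and lists were chosen with earlier results of these data known. Coordinates count from 1 and are those of the deposited table.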

Additional observations from a re-analysis of the deposited data

How the results depend on the processing

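The fold change of FTH1 kept its direction in all 15 alternatives. It did not pass the adjusted threshold in any of the 14 that gave it an adjusted p. Its values ran from −0.46 (DESeq2) to −0.40 (library size only) where all samples were kept, and from −0.56 to −0.30 with 1 sample left out. With the replicate number as a block, it was −0.45 (unadjusted p = 0.00536, adjusted p = 0.880, both from edgeR). The labels share replicate numbers, but the deviations of same-numbered samples correlated at −0.11, 0.03 and −0.12, so that the numbers were not taken to pair the samples. The fold change of the antisense locus MSTRG.27483 became 0.30 without control replicate 2 and 0.08 without GABA replicate 1, in a range of −0.27 to 0.30 with 1 sample left out. Over the whole table, edgeR's 0 calls became 23 with DESeq2, 7 with DESeq2 without independent filtering and 58 with no count filter, and stayed 0 in the other 12 settings, those with 1 sample left out included. FTH1 was in none of these sets of calls, nor were the 5 tested loci around it. Default DESeq2 gave FTH1, MSTRG.27483 and MSTRG.27484 no adjusted p, so that they were not put to the threshold there. Why the number of calls moved was not tested. In edgeR's main fit 1591 of the 24300 loci tested (6.55%) had an unadjusted p under 0.05. With no filter all 54031 loci with a count were tested, of which 3012 had such a p and 58 were called. Where loci needed a mean of 100 counts, 899 had such a p. These settings tested different numbers of loci, so that the bare counts cannot be compared. The abundance rank of FTH1 was 3449 per kilobase against 6636 by counts, and 6377 to 6889 with 1 sample left out. FTH1 had 2413 counts over the 6 samples, and each group had 3 pools, both of which limit the precision.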
